A study of Mus musculus with 12 samples.

Results

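Matrix metalloproteinases (MMPs), ADAMTS proteases and the tissue inhibitors of metalloproteinases (TIMPs) were followed in mouse glioblastoma cultures of 3 origins and in neural stem cell (NSC) cultures, using whole-transcript arrays from Affymetrix. The members were 38 genes of these families, listed by name, with earlier results of these data known. A probe set belonged to them when the array annotation gave it exactly 1 symbol and that symbol was a member's. This gave 60 of 21780 such probe sets for 36 genes, which were 15 MMPs, 18 ADAMTS proteases and 3 TIMPs. Of these genes 33 had 1 probe set, Adamts3 had 16, Adamts9 had 6 and Adamts17 had 5. Mmp15 and Adamts2 had none and were not analysed here.

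The series holds 12 cultures with 1 array each. Every mouse line lacked the tumour suppressor Arf (Arf-/-), and so did the controls, per the labels. Each line carried the avian retrovirus receptor tv-a under 1 promoter. The mGC1_GFAP cultures came from G/tv-a mice (Gfap promoter), the mGC2_NES cultures from N/tv-a mice (Nes promoter) and the mGC3_CNP cultures from C/tv-a mice (Cnp promoter), with 3 cultures per line. These tumours were started in the adult brain by injecting chicken DF-1 cells that release RCAS-PDGFB-HA, an avian retrovirus carrying the growth factor PDGFB. The 3 NSC cultures, 1 per line, were made from adult brain tissue of the subventricular zone. Cells grew attached in stem cell medium with no treatment, and for the mouse tumour cultures the labels give dishes coated with an extracellular matrix preparation. A coating for the NSC cultures is not stated separately. The promoter defines the cells that the virus could enter, not the cells that were infected, and mouse line and origin coincide. Whether the tumour cultures of a line came from separate animals is not stated, and the p-values cover only culture-to-culture spread, which may be partly technical.

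The members act outside the cell or on its surface. MMPs are zinc-dependent proteases that cleave matrix proteins. They are made as inactive proenzymes, either secreted or, for the membrane types, held at the cell surface. ADAMTS proteases are secreted enzymes with thrombospondin repeats that bind matrix. They cut proteoglycans such as aggrecan, brevican and versican, which fill the space between brain cells, or they trim procollagens. TIMPs block the active site of both groups to different degrees, and Timp2 also takes part in the activation of proMmp2 at the surface by Mmp14.

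All values are log2 probe set summaries. Array medians lay between 7.60 and 7.66. Probe sets of spermatid transcripts taken as absent from these cultures (Prm2, Tnp1, Tnp2 and Odf1) read 5.60 to 7.42. The upper limit was set by Prm2 alone (7.26 to 7.42), while Tnp2, Tnp1 and Odf1 read at most 6.66, 6.15 and 5.94. A level at or below 7.42 was therefore read as not shown to be above background, and a difference whose lower mean lies there is a lower bound that cannot be ranked against others of that kind. Levels of different probe sets were not set against each other. The G/tv-a NSC culture gave both Xist (11.86) and the Y-linked transcripts (mean 8.39), which no other culture did. In mGC2_NES replicate 2, Xist read 9.27 and the Y-linked mean 4.89. The 3 mGC3_CNP cultures gave Xist (11.91 to 12.61) with Y-linked means of 4.77 to 4.96. In mGC1_GFAP replicates 1 and 2 and mGC2_NES replicates 1 and 3, Y-linked means were 8.57 to 9.17 and Xist 5.40 to 5.62. Sex thus varied in part with origin, and its part in the differences between origins was not tested. Calls lost without the G/tv-a NSC culture are given with the members concerned.

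The mean over 6 markers of oligodendrocyte precursors lay between 12.65 and 12.80 in tumour cultures, against 10.15 to 10.36 in NSC cultures. Of these 6, 4 were higher and 2 did not pass. Olig1 read 12.75 to 13.03 in tumour and 12.96 to 12.99 in NSC cultures, and Olig2 12.10 to 12.41 and 12.36 to 12.48. The mean over 6 neural stem cell markers lay between 8.07 and 9.20 in tumour cultures, against 10.91 to 11.17 in NSC cultures. Of these 6, 5 were lower and 1 did not pass. Sox2 read 11.88 to 12.58 in tumour and 12.43 to 12.62 in NSC cultures. Of 10 microglia and macrophage markers 2 read above 7.42 on any array, of 7 endothelial markers 1 and of 5 neutrophil markers 0. Of 8 pericyte and fibroblast markers 4 did. The mean over these 8 lay between 6.60 and 6.97 in tumour cultures, against 6.96 to 7.07 in NSC cultures. Against NSC 2 of the 8 were lower (Acta2 by -2.76, a lower bound, and Rgs5 by -0.29), 2 were higher (Lum by 0.28 and Dcn by 0.16) and 4 did not pass. Rgs5, Lum and Dcn read below 7.42 on every array. The part of these marker differences in the member results was not tested. In such bulk cultures fewer cells of a type and less RNA per cell cannot be told apart.

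Much of the family gave no signal above the level of absent transcripts. For 14 of the 36 genes no probe set had a group mean above 7.42, and their readings lay between 5.37 and 7.60. They were the collagenase Mmp13, the stromelysins Mmp3, Mmp10 and Mmp11, the macrophage elastase Mmp12, the gelatinase Mmp9, the membrane-type Mmp24 and Mmp25, Mmp23, the epilysin Mmp28, the von Willebrand factor protease Adamts13, Adamts15, Adamts16 and Adamts18. The mean of Mmp9 was 6.50 ± 0.10 in tumour cultures (SD, n = 9) and 6.55 ± 0.08 in NSC cultures (SD, n = 3), with a limma adjusted p of 0.555. Of these 14 genes only Adamts16 passed a test against NSC over all tumour cultures, with both means within that range. A transcript present at a low level would not be seen at this background.

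Mmp13, Mmp12, Mmp3 and Mmp10 lie in that order in the Mmp cluster of chromosome 9, with Mmp1b and Mmp1a between them and Mmp8, Mmp27, Mmp20 and Mmp7 after them. All 4 read 5.37 to 6.20 on all 12 arrays. The 7 further Mmp genes listed with the family (Mmp1a, Mmp1b, Mmp7, Mmp8, Mmp20, Mmp21 and Mmp27) read 4.13 to 6.72, and none passed the test against NSC. RefSeq promoter entries (GRCm38.p6, from 250 bases before to 50 bases after a start) matched 22 of the 36 measured members, with 24 entries. The AP-1 motif TGANTCA, a palindrome that reads alike on both strands, was in 4 of these 24 promoters, which is 16.7%, against 7.81% of all 32851 promoters in the table. The 4 were those of Mmp13, Mmp12, Mmp3 and Mmp10, at 35, 44, 46 and 63 bases before the start, and the 19 promoters of the other 18 genes had 0. The second listed start of Mmp12 had none. The TATA motif TATAAA, searched on both strands, was within 100 bases before the start in 4 of the 24 promoters (Mmp13, Mmp3, Mmp10 and Adamts1), against 5.56% of all promoters. A match is a description of letters and not evidence of binding.

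The bases just before the start of the 4 cluster genes are printed because they hold these motifs, in capitals (TGANTCA and TATAAA).
Mmp13, chr9:7272414-7272513 on the plus strand: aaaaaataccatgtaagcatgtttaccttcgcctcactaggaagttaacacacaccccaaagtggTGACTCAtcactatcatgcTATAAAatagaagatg
Mmp12, chr9:7347274-7347373 on the plus strand: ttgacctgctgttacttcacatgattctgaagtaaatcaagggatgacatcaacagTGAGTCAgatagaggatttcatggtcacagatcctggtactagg
Mmp3, chr9:7445722-7445821 on the plus strand: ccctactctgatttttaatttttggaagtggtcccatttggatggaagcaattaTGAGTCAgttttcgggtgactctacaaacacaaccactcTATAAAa
Mmp10, chr9:7502242-7502341 on the plus strand: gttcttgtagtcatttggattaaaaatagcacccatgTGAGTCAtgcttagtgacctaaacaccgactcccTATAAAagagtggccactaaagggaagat
The 300-base windows at these 4 starts held 1 to 3 CG pairs and 37.7% to 43.7% G and C. The second listed start of Mmp12, not printed, held 0 CG pairs and 38.7% G and C. The 19 promoters of the other member genes held a median of 20 CG pairs and 64.7% G and C, against 7 and 52.7% over all promoters. Promoters of 2 genes that were lower and 2 that were higher in tumour cultures than in NSC cultures are printed for comparison, with each CG pair in capitals.
Mmp14, chr14:54431498-54431597 on the plus strand: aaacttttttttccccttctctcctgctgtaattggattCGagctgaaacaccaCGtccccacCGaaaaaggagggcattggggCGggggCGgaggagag
Adamts14, chr10:61273420-61273519 on the minus strand: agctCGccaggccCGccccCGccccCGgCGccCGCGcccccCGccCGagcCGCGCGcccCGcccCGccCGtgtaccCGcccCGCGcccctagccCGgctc
Adamts1, chr16:85803114-85803213 on the minus strand: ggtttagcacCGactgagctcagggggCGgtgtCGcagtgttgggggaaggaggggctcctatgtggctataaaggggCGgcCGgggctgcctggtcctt
Adamts20, chr15:94404351-94404450 on the minus strand: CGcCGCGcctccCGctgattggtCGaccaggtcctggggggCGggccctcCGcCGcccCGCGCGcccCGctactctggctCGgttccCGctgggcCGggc
These 4 held 5, 19, 5 and 15 CG pairs in the bases shown. CG pairs thus did not separate the higher genes from the lower ones among these 4.

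Against NSC cultures, tumour cultures had higher levels of the membrane-type Mmp16 and Mmp17, Adamts1, Adamts20, Timp2 and Timp4. They had lower levels of Mmp14, Mmp19, Mmp2 and 8 ADAMTS genes. In limma, 22 of 60 member probe sets passed at an adjusted p under 0.05, in 17 genes, which is 36.7% of the members against 36.7% of all probe sets tested. By probe set the share of calls is therefore the background's, and it depends on genes with many probe sets. With 1 test per gene, on the mean of its probe sets, 17 of 36 member genes passed, against 7373 of 19934 genes. That setting was added after the data were seen. By gene 6 were higher and 11 lower, against 3557 and 3816 of all. Whether the members exceed the background by gene was not tested. Of the 22 probe sets, 6 were higher (10% against 17.6%) and 16 were lower (26.7% against 19.2%). Called differences of at least 1 log2 unit were found for 15 probe sets of 11 genes (25% against 7.36%), and 5 of those 15 were of Adamts9. The groups' arrays did not overlap for 17 probe sets (28.3% against 27.3%). The median absolute difference was 0.56 over the members and 0.15 over all probe sets, and the median difference was 0.12 and 0.01. By family the median absolute difference was 0.11 over 15 MMP, 0.65 over 42 ADAMTS and 0.67 over 3 TIMP probe sets. The MMP value was thus not above that of all probe sets. Of the 42 ADAMTS probe sets 16 were of Adamts3, which are not independent and of which none passed. Among 15 MMPs 2 rose, 3 fell and 10 did not pass, among 18 ADAMTS genes 2 rose, 8 fell and 8 did not pass, and among 3 TIMPs 2 rose and 1 did not pass.

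**Figure D1:**
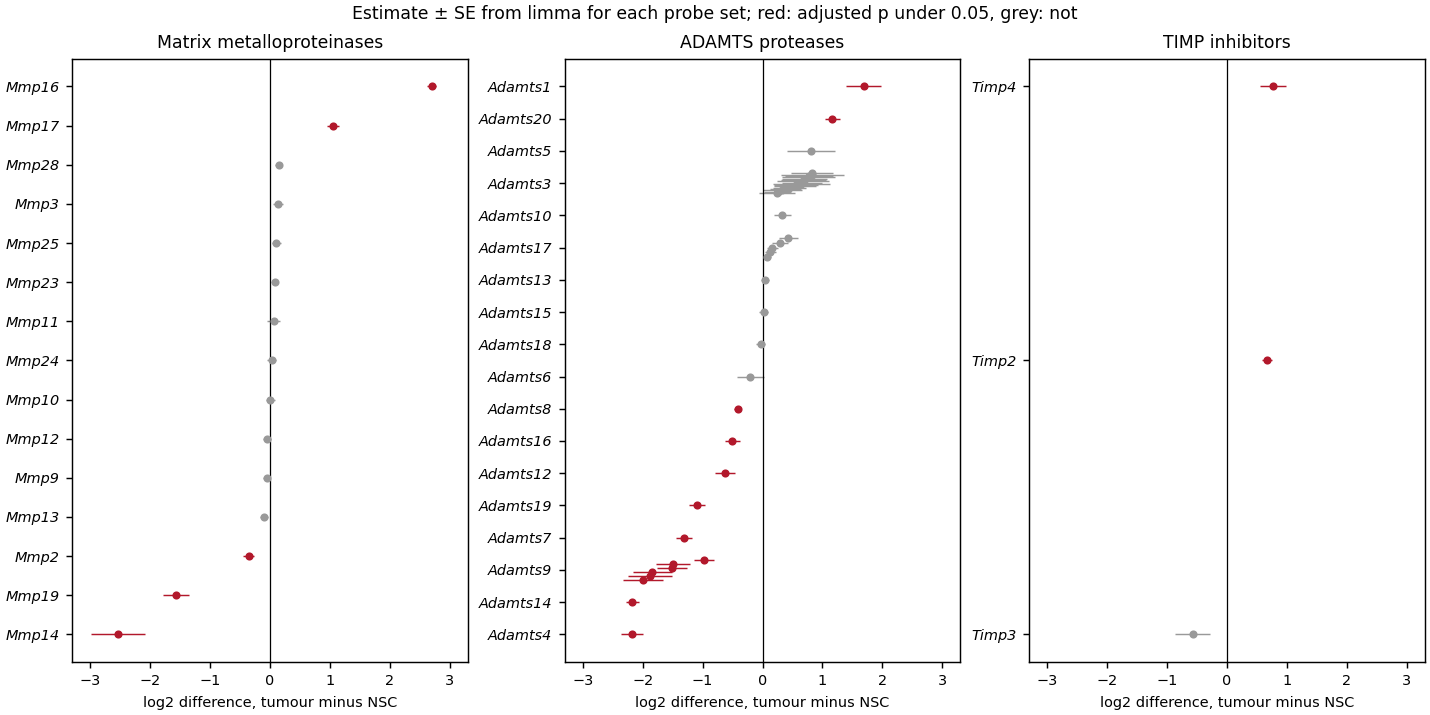
Log2 difference of tumour minus NSC cultures (x axis, limma estimate ± SE) for each of the 60 member probe sets, by family and gene (y axis). Red points passed at an adjusted p under 0.05; Mmp16 stands furthest to the right at 2.70 and Mmp14 furthest to the left at -2.54.

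Mmp16, a membrane-type MMP that can activate proMmp2, rose most among the called members whose tumour and NSC means both lay above the level of absent transcripts. Its levels were 11.68, 11.87 and 11.72 in mGC1_GFAP, 11.78, 11.64 and 11.94 in mGC2_NES, 11.90, 11.99 and 11.98 in mGC3_CNP, and 9.17, 9.23 and 9.02 in the C/tv-a, N/tv-a and G/tv-a NSC cultures. The 9 tumour cultures lay close together and all stood far above the NSC cultures. The difference was 2.70 ± 0.07 (estimate ± SE, limma adjusted p = 2.68e-10). Mmp17, a membrane-type MMP held by a lipid anchor, read 10.03, 10.07 and 9.86 in mGC1_GFAP, 9.69, 9.58 and 9.71 in mGC2_NES, 9.88, 10.12 and 10.28 in mGC3_CNP, and 8.74, 9.09 and 8.76 in NSC. Again no tumour culture reached down to the NSC cultures, and the difference was 1.05 ± 0.10 (limma adjusted p = 5.34e-06).

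Mmp14, the membrane-type MMP that activates proMmp2 and cleaves fibrillar collagen, went the other way. It read 7.54, 7.50 and 7.50 in mGC1_GFAP, 10.32, 7.47 and 7.92 in mGC2_NES, 7.63, 7.67 and 7.52 in mGC3_CNP, and 10.52, 9.94 and 10.85 in NSC. Of the tumour cultures 8 lay just above the level of absent transcripts, and mGC2_NES replicate 1 alone lay within the NSC range. The difference was -2.54 ± 0.45 (limma adjusted p = 0.000851), and -2.84 without that culture (adjusted p = 4.41e-07). Mmp14 and Mmp16, 2 membrane-type activators of the same proenzyme, thus changed in opposite directions. In mGC2_NES replicate 1 the mean over the 7 endothelial markers was 6.84, the highest of the 9 tumour cultures and below the level of absent transcripts. Kdr (7.41), Pecam1 (6.87) and Tek (6.25) were highest there among tumour cultures. Cldn5 (7.46), Cdh5 (6.58), Esam (6.61) and Tie1 (6.71) were not. The mean over the 8 pericyte and fibroblast markers was 6.61 in that culture, with 1 tumour culture lower. Its Cd44 level of 8.17 was the highest of the tumour cultures. The part of these levels in its Mmp14 level was not tested.

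Mmp19, a secreted MMP that cleaves basement membrane proteins, read 6.83, 6.96 and 6.74 in mGC1_GFAP, 6.68, 6.85 and 7.08 in mGC2_NES, 6.80, 6.89 and 6.88 in mGC3_CNP, and 8.83, 8.85 and 7.60 in NSC. All tumour cultures were within the range of absent transcripts and all NSC cultures above it, the G/tv-a one only just. The difference of -1.57 ± 0.22 (limma adjusted p = 0.000127) is a lower bound. It was -1.98 without the G/tv-a NSC culture. Mmp2, the gelatinase that Mmp14 and Mmp16 activate, averaged 7.38 ± 0.15 in tumour cultures (SD, n = 9) and 7.74 ± 0.22 in NSC cultures (SD, n = 3). The ranges overlapped, through mGC2_NES replicate 3. Its difference of -0.36 ± 0.10 (limma adjusted p = 0.0130), also a lower bound, did not pass without the C/tv-a NSC culture (adjusted p = 0.0869) or without the G/tv-a one (0.0655).

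**Figure D2:**
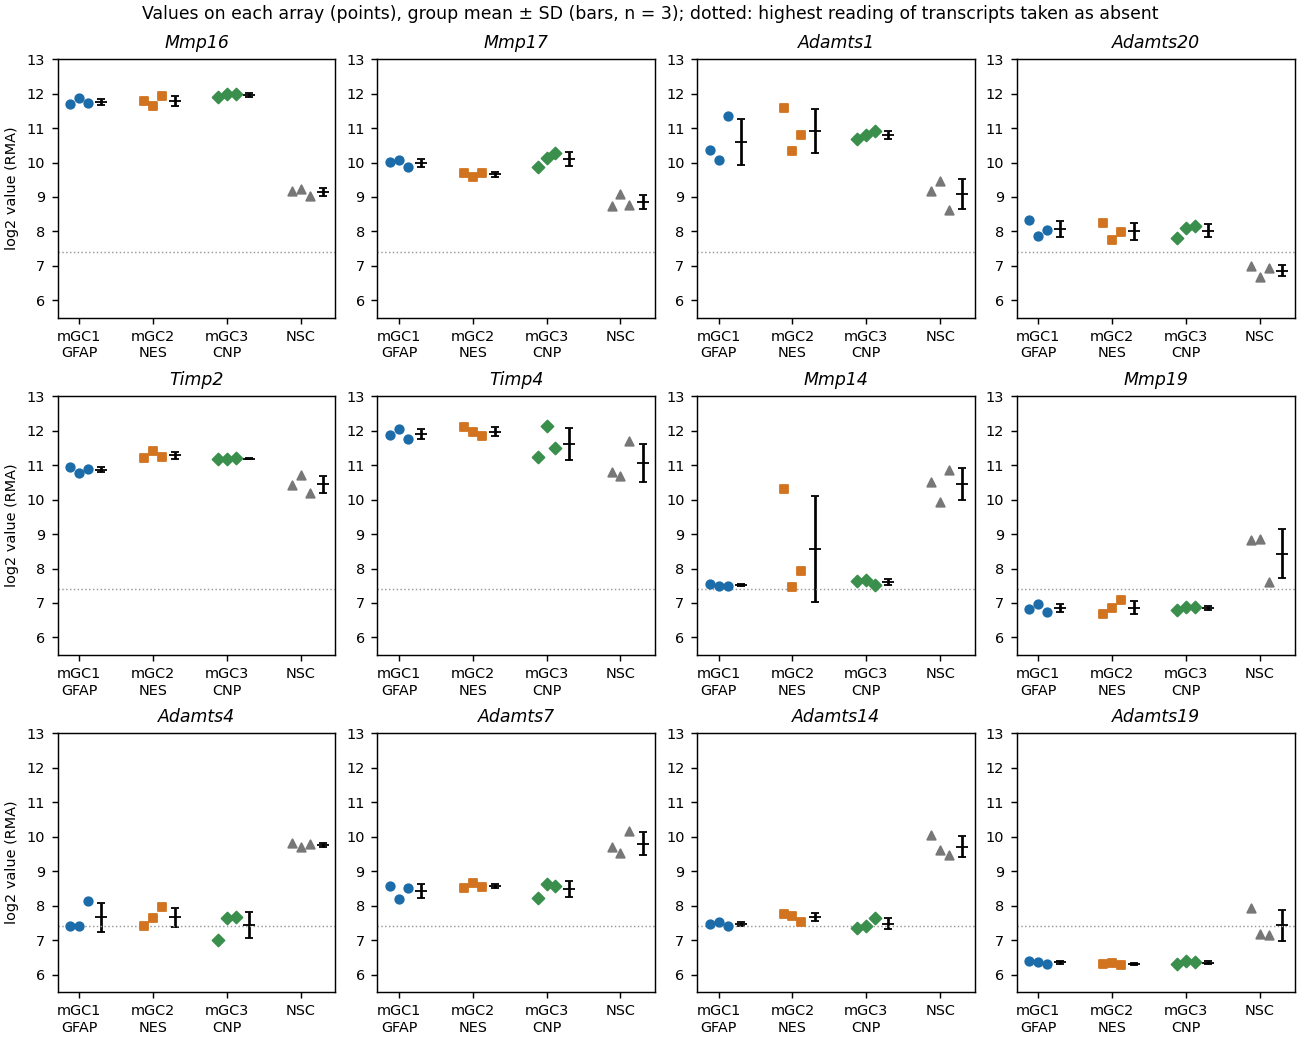
Log2 level (y axis) of 12 member genes in each culture (points), by group (x axis), with group means ± SD (n = 3). The panels from Mmp16 to Timp4 hold genes higher in tumour cultures and those from Mmp14 to Adamts19 genes lower in them; the dotted line at 7.42 is the highest reading of transcripts taken as absent, and 1 mGC2_NES culture stands at NSC height for Mmp14.

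Of the ADAMTS proteases, Adamts1 and Adamts20 rose. Adamts1, which cleaves aggrecan and versican, read 10.35, 10.08 and 11.34 in mGC1_GFAP, 11.58, 10.33 and 10.81 in mGC2_NES, 10.68, 10.79 and 10.91 in mGC3_CNP, and 9.17, 9.46 and 8.61 in NSC. The groups did not overlap, with wide spread in the first and second origin. The difference was 1.69 ± 0.29 (limma adjusted p = 0.000683). Adamts20, known from the belted coat mutation of mice, where versican cleavage and melanoblast survival are impaired, read 7.76 to 8.32 (median 8.03) in tumour cultures, against 6.996, 6.68 and 6.93 in NSC. All tumour cultures were above the range of absent transcripts and all NSC cultures within it. The difference of 1.16 ± 0.12 (limma adjusted p = 1.9e-05) is a lower bound. Adamts20 lies on chromosome 15, where the median difference over 831 probe sets was 0.11 with 309 higher and 77 lower, against medians of -0.02 to 0.02 on every other chromosome tested. Adamts12 lies on chromosome 15 too and was lower in tumour cultures, as given below. The part of the chromosome in either difference was not tested.

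Adamts4, Adamts14 and Adamts7 fell by more than 1 log2 unit with no overlap between groups. Adamts4, an aggrecanase that also cuts brevican, read 7.42, 7.41 and 8.15 in mGC1_GFAP, 7.40, 7.64 and 7.95 in mGC2_NES, 7.005, 7.65 and 7.66 in mGC3_CNP, and 9.82, 9.70 and 9.78 in NSC. Its difference was -2.18 ± 0.18 (limma adjusted p = 2.63e-06), with the 3 NSC cultures almost level. Adamts14, which trims the amino end of procollagens, read 7.47, 7.53 and 7.41 in mGC1_GFAP, 7.76, 7.68 and 7.53 in mGC2_NES, 7.36, 7.42 and 7.65 in mGC3_CNP, and 10.06, 9.61 and 9.47 in NSC. Its difference was -2.18 ± 0.11 (limma adjusted p = 4.37e-08), and the tumour cultures lay at or near the level of absent transcripts. Adamts7, which cleaves cartilage oligomeric matrix protein, read 8.20 to 8.65 (median 8.55) in tumour cultures, against 9.70, 9.52 and 10.17 in NSC. Its difference was -1.31 ± 0.13 (limma adjusted p = 1.33e-05), and the tumour cultures stayed clearly above the range of absent transcripts.

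Adamts9, a versican-cleaving protease, was lower on all 6 of its probe sets, by -0.98 to -1.99, with adjusted p from 0.000499 to 0.00173 in limma. Averaged over these probe sets, it read 8.57, 8.11 and 8.02 in mGC1_GFAP, 7.93, 8.22 and 9.17 in mGC2_NES, 7.46, 8.72 and 8.61 in mGC3_CNP, and 10.005, 9.93 and 9.86 in NSC. The NSC cultures lay together and the tumour cultures spread widely below them. Averaged so, the difference for Adamts9 was -1.62 (adjusted p = 0.000749 with 1 test per gene, a setting added after the data were seen). Adamts19, a protease of poorly known substrate, read 6.28 to 6.38 (median 6.34) in tumour cultures, against 7.94, 7.19 and 7.15 in NSC. Only the C/tv-a NSC culture was above the range of absent transcripts, and the difference of -1.09 ± 0.13 (limma adjusted p = 5.05e-05) is a lower bound.

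The other ADAMTS genes that fell did so by less than 1 log2 unit. They were Adamts8 (-0.42 ± 0.06), Adamts12 (-0.63 ± 0.16) and Adamts16 (-0.50 ± 0.13), with limma adjusted p of 0.000151, 0.00852 and 0.00904. Adamts12 read within the range of absent transcripts in the tumour cultures on average, so its value is a lower bound, and it did not pass without the G/tv-a NSC culture (adjusted p = 0.0580). Adamts16 averaged within that range in both groups, at 6.67 in tumour and 7.18 in NSC cultures, so its difference is not a measured change of a transcript above background. The NSC cultures read 7.60 (C/tv-a), 6.79 (N/tv-a) and 7.13 (G/tv-a), and without the C/tv-a culture the difference was -0.29 (adjusted p = 0.0403). The 8 ADAMTS genes that did not pass include Adamts5, an aggrecanase (0.81 ± 0.41, limma adjusted p = 0.154), Adamts6 (-0.21 ± 0.23, 0.534) and the fibrillin-associated Adamts10 (0.33 ± 0.14, 0.101). All 16 probe sets of Adamts3, a procollagen and VEGF-C processing protease, had positive differences of 0.25 to 0.83 and none passed. All 5 of Adamts17 had positive differences of 0.07 to 0.43, and none passed, the lowest adjusted p lying just above the threshold. Adamts14 thus fell while Adamts3, of the same procollagen-trimming branch, did not pass, and the difference between them was not tested.

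Of the inhibitors, Timp2 and Timp4 rose. Timp2, which inhibits MMPs and takes part in proMmp2 activation, read 10.93, 10.78 and 10.90 in mGC1_GFAP, 11.22, 11.40 and 11.23 in mGC2_NES, 11.18, 11.18 and 11.19 in mGC3_CNP, and 10.43, 10.70 and 10.20 in NSC. The N/tv-a NSC culture came close to the lowest tumour culture without overlap. The difference was 0.67 ± 0.09 (limma adjusted p = 0.000103). Timp4, an inhibitor found in brain and heart, read 11.24 to 12.14 (median 11.88) in tumour cultures, against 10.81, 10.68 and 11.69 in NSC, so that the G/tv-a NSC culture lay among the tumour cultures. Its difference of 0.77 ± 0.21 (limma adjusted p = 0.0139) was 1.09 without the G/tv-a NSC culture, and did not pass without the C/tv-a one (adjusted p = 0.0809) or the N/tv-a one (0.0914). Timp3, the matrix-bound TIMP that also blocks ADAMTS proteases, averaged 9.97 ± 0.56 in tumour cultures (SD, n = 9) and 10.55 ± 0.30 in NSC cultures (SD, n = 3). Its difference of -0.57 ± 0.29 did not pass (limma adjusted p = 0.149).

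Each tumour origin was then set against the same 3 NSC cultures, so the 3 comparisons are not independent. For mGC1_GFAP 27 of 60 probe sets passed (45% against 29.3% of all), with 11 higher (18.3% against 13.9%) and 16 lower (26.7% against 15.3%). For mGC2_NES 22 passed (36.7% against 34.9%), with 7 higher (11.7% against 16.6%) and 15 lower (25% against 18.2%). For mGC3_CNP 20 passed (33.3% against 30.3%), with 5 higher (8.33% against 14.9%) and 15 lower (25% against 15.5%). In all 3 origins 19 probe sets passed in the same direction, those of Mmp14, Mmp16, Mmp17, Mmp19, Adamts1, Adamts4, Adamts7, Adamts8, Adamts14, Adamts16, Adamts19, Adamts20, Timp2 and the 6 of Adamts9. In 1 or 2 origins 9 passed, those of Mmp2, Mmp28, Adamts10, Adamts12, Timp4 and 4 of Adamts3, and 32 passed in none. Several of these calls rest on few cultures. Adamts16 passed in 7 of 18 alternatives in mGC1_GFAP and in 6 of 18 in mGC2_NES, and did not pass there without the C/tv-a NSC culture (adjusted p = 0.124 and 0.151) or without the G/tv-a one (0.0754 and 0.0824). The Mmp28 call, in mGC2_NES with a difference of 0.19, passed in 3 of 18 alternatives, and all its group means were within the range of absent transcripts. Timp4 passed in 14 of 19 alternatives in mGC1_GFAP and in 16 of 19 in mGC2_NES, and Adamts12 in 15 of 18 in each of these origins. Mmp2 passed in 16 of 19 in mGC1_GFAP and in 14 of 19 in mGC3_CNP. Without the G/tv-a NSC culture Adamts12 did not pass in mGC1_GFAP (adjusted p = 0.0762) or mGC2_NES (0.0717), nor did Mmp2 in mGC1_GFAP (0.0510) or mGC3_CNP (0.0828). Mmp16 differed from NSC by 2.62 ± 0.09 in mGC1_GFAP, 2.65 ± 0.09 in mGC2_NES and 2.82 ± 0.09 in mGC3_CNP. Mmp14 differed by -2.93 ± 0.55, -1.87 ± 0.55 and -2.83 ± 0.55 in the same order, and the mGC2_NES value was -2.74 without its replicate 1. With all tumour cultures in, it did not pass without the G/tv-a NSC culture (adjusted p = 0.0715). Adamts10 differed from NSC by 0.66 ± 0.18 in mGC1_GFAP (limma adjusted p = 0.0149) and did not pass in mGC2_NES (0.680) or mGC3_CNP (0.432). The mGC1_GFAP call was lost without the G/tv-a NSC culture (0.0593) and without mGC1_GFAP replicate 1 (0.0640). The calls of 4 Adamts3 probe sets in mGC1_GFAP were all lost with a robust variance prior, without any 1 of the NSC cultures and without mGC1_GFAP replicate 1. The mean of the 16 Adamts3 probe sets gave 1.15 with a limma adjusted p of 0.0727.

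**Figure D3:**
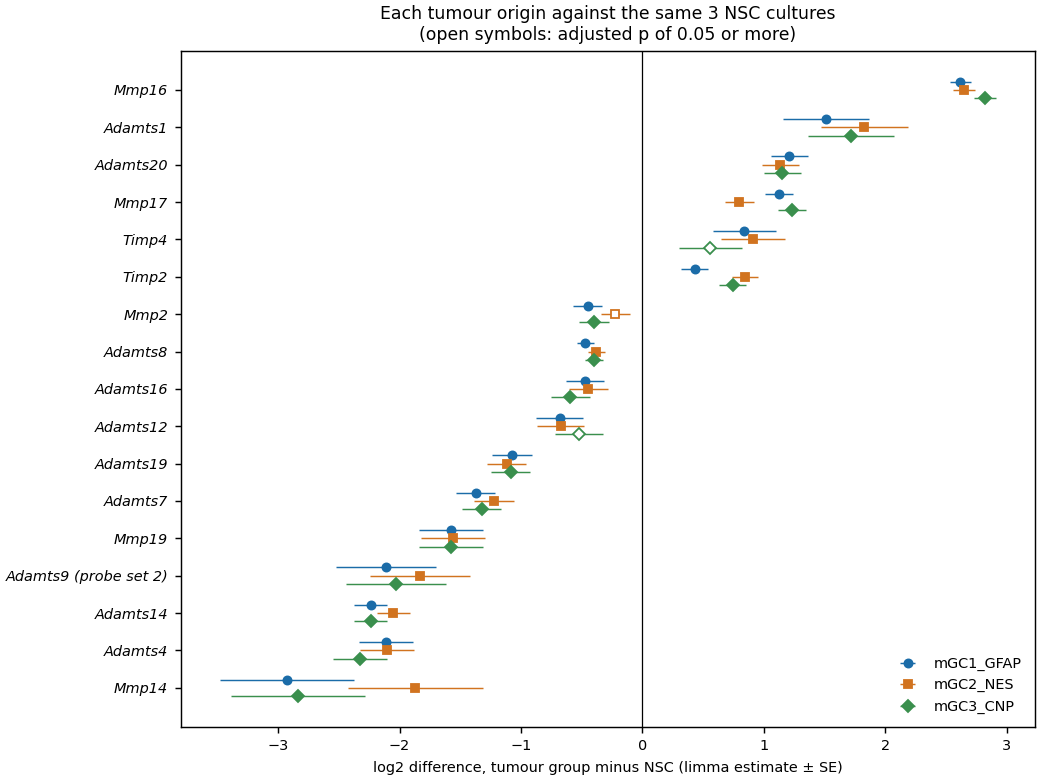
Log2 difference of each tumour group minus the 3 NSC cultures (x axis, limma estimate ± SE) for the 17 genes that passed over all tumour cultures (y axis; for Adamts9 the probe set with the largest difference). Filled symbols passed at an adjusted p under 0.05; the point estimates of the 3 origins lie close together for most genes, and for Mmp14 that of mGC2_NES is -1.87.

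Whether the origins differ from each other was tested on the 9 tumour arrays. A limma F test of any difference among the 3 groups passed for 1 of 60 member probe sets (1.67% against 4.05% of all), which was Timp2 (adjusted p = 0.0315). This F test call was lost with replicate number as a block (0.0592), with all 12 arrays in the fit (0.0934) and without any 1 of 7 of the 9 cultures (0.0579 to 0.0880). Between mGC1_GFAP and mGC2_NES 1 passed (1.67% against 6.13%), again Timp2, which averaged 10.87 ± 0.08 in mGC1_GFAP and 11.29 ± 0.10 in mGC2_NES (SD, n = 3 each). The difference was -0.41 ± 0.07 (limma adjusted p = 0.0140), and the arrays of these groups did not overlap. Timp2 averaged 11.19 ± 0.01 in mGC3_CNP (SD, n = 3), and neither mGC1_GFAP minus mGC3_CNP (-0.32 ± 0.07, adjusted p = 0.111) nor mGC2_NES minus mGC3_CNP (0.10 ± 0.07, 0.622) passed. In mGC1_GFAP against mGC3_CNP 0 member probe sets passed in limma (0% against 0.487%), with 5 at an unadjusted p under 0.05 (8.33% against 12.9% of all). In mGC2_NES against mGC3_CNP 0 passed as well (0% against 0.459%), with 2 at an unadjusted p under 0.05 (3.33% against 13.3%). In mGC1_GFAP against mGC2_NES 11 were under that unadjusted p (18.3% against 20.6%), and 8 of the 11 were probe sets of Adamts3. With 3 cultures a group, a p that misses the threshold does not show that the origins are alike.

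Some members spread widely among single tumour cultures. Over the 9 tumour cultures 28 probe sets of 9 genes ranged over more than 1 log2 unit (46.7% against 7.7% of all), those of Adamts1, Adamts3, Adamts4, Adamts5, Adamts6, Adamts9, Adamts10, Mmp14 and Timp3. Of the 28, 16 were of Adamts3 and 5 of Adamts9, and the other 7 genes gave 1 each. Averaged over its 16 probe sets, Adamts3 read 9.04, 7.89 and 8.02 in mGC1_GFAP, 6.90, 6.83 and 7.98 in mGC2_NES, 6.93, 7.51 and 8.67 in mGC3_CNP, and 7.15, 7.26 and 7.09 in NSC. The mGC1_GFAP replicate 1 culture was the highest of the 12 on 16 of the 16 probe sets. These probe sets lie in 1 gene and share each culture's RNA, so they are not independent. All 16 were higher in mGC1_GFAP than in mGC2_NES, by 0.60 to 1.60, and none passed (limma adjusted p from 0.177 to 0.389).

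Adamts5 read 7.68, 7.27 and 7.39 in mGC1_GFAP, 9.08, 7.23 and 8.27 in mGC2_NES, 9.87, 7.81 and 8.54 in mGC3_CNP, and 7.04, 7.61 and 7.32 in NSC. All 3 mGC3_CNP cultures and 2 of the 3 mGC2_NES cultures lay above the highest NSC culture, and mGC2_NES replicate 2 lay among the NSC cultures. Adamts1, its neighbour on chromosome 16, was above NSC in all 9 tumour cultures, as given above. Within Adamts9, mGC2_NES replicate 3 was the highest tumour culture on 6 of 6 probe sets and mGC3_CNP replicate 1 the lowest on 5 of 6. Timp3 read 9.46, 9.33 and 10.07 in mGC1_GFAP, 9.10, 10.34 and 10.58 in mGC2_NES, 9.88, 10.46 and 10.56 in mGC3_CNP, and 10.57, 10.24 and 10.83 in NSC. The lowest Timp3 level was in mGC2_NES replicate 1, the culture with the highest Mmp14 level.

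**Figure D4:**
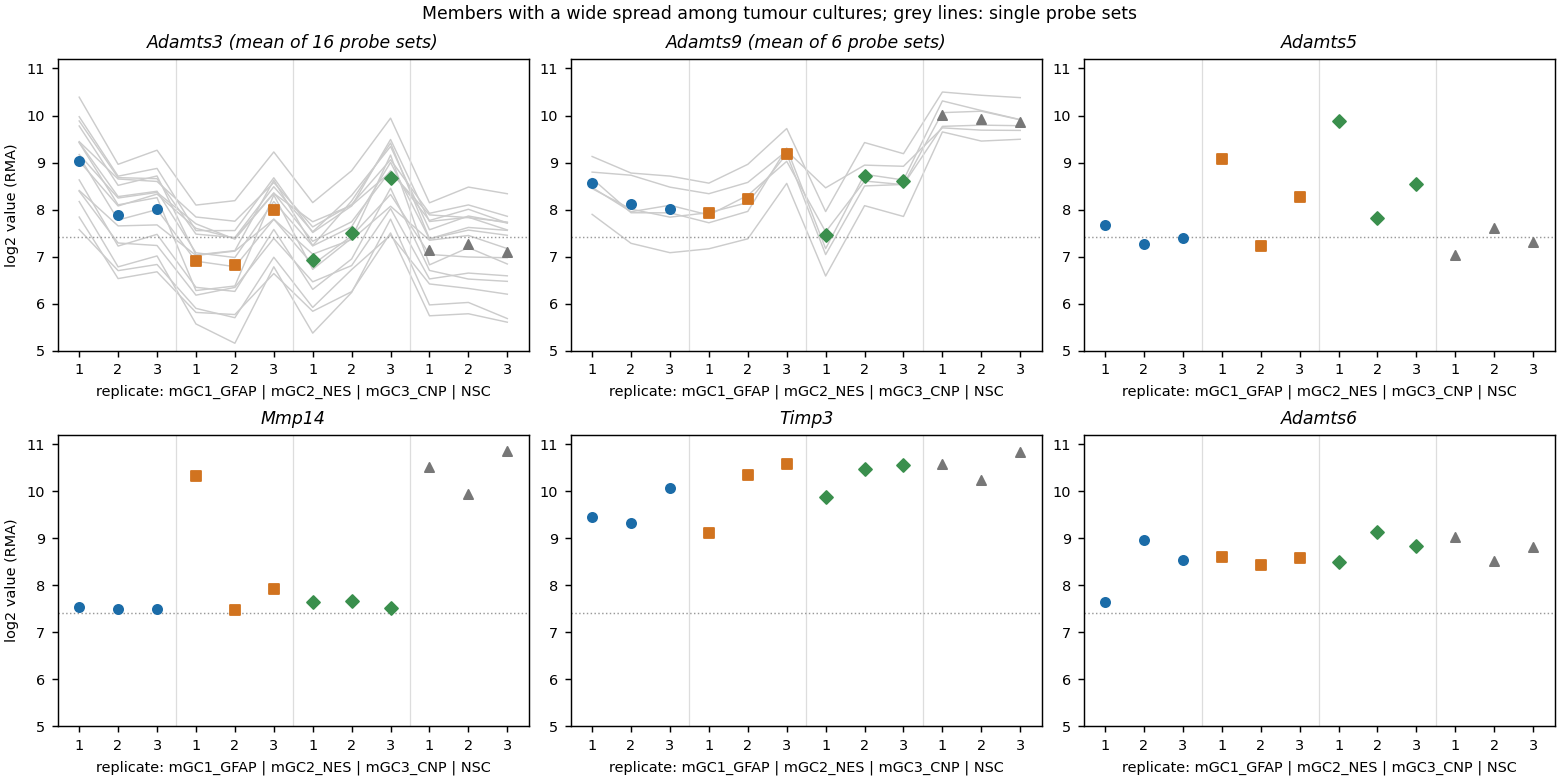
Log2 level (y axis) of 6 member genes in each of the 12 cultures (x axis, replicates 1 to 3 within each group). Coloured points are the value of the probe set or the mean of several, and grey lines join the values of single probe sets; mGC1_GFAP replicate 1 is highest for Adamts3 at 9.04 and mGC2_NES replicate 1 for Mmp14 among tumour cultures at 10.32.

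Genes around the members were counted from lists. Of the 8 family genes outside the members 1 fell and 7 did not pass against NSC, and the 1 was Timp1, a TIMP (-3.56 ± 0.24, limma adjusted p = 5.07e-07). Its tumour mean was within the range of absent transcripts, so this is a lower bound, and its direction was opposite to that of Timp2 and Timp4. Of 14 ADAM and astacin proteases 6 rose and 4 fell, with the neuronal adhesion protein Adam23 at 2.07 ± 0.13, the procollagen protease relative Tll1 at 2.33 ± 0.44 (a lower bound) and Adam19 at -1.83 ± 0.15. Of 7 ADAMTS-like matrix proteins 2 rose and 2 fell, with Adamtsl1 at 1.12 ± 0.13 on its probe set with the larger difference and Adamtsl3 at 0.97 ± 0.33, both lower bounds, and Papln at -1.03 ± 0.09. Adamtsl3 read 8.27, 6.96 and 6.96 in mGC1_GFAP, 8.59, 9.72 and 10.09 in mGC2_NES, 8.04, 7.95 and 8.09 in mGC3_CNP, and 7.74, 7.32 and 6.93 in NSC. By origin, 2 of the 7 rose against NSC in mGC2_NES and 1 in each of mGC1_GFAP and mGC3_CNP. The median difference of these 3 lists was -0.05, 0.06 and 0.06, against 0.01 over all probe sets.

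Of 9 measured proenzyme activators 2 rose and 4 fell. The plasminogen activator Plat (-1.96 ± 0.15) and the urokinase receptor Plaur (-1.65 ± 0.28) fell, while the proprotein convertase Pcsk6 rose (1.31 ± 0.11). Of 8 measured further inhibitors and clearance receptors 3 rose and 1 fell. The broad protease trap A2m fell (-3.07 ± 0.33), the testican Spock2 rose (2.57 ± 0.22), and the membrane-bound MMP inhibitor Reck rose (0.62 ± 0.07). Reck was also lower in mGC1_GFAP than in mGC2_NES (-0.38 ± 0.08, limma adjusted p = 0.0236), as Timp2 was. This was not particular to inhibitors. In that comparison 1 gene was lower in each list of ADAM and astacin proteases, ADAMTS-like proteins, and AP-1 and ETS factors. Among the substrates 1 was higher. Of all probe sets 6.13% passed there. The differences from NSC for Plaur and A2m are lower bounds.

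Of 11 substrates of these proteases 3 rose and 5 fell. The aggrecanase substrate Acan rose (4.78 ± 0.13, a lower bound), and the tenascin Tnr (2.38 ± 0.27) and the brain proteoglycan Bcan (1.24 ± 0.11) rose with it. The tenascin Tnc (-3.39 ± 0.53), the hyaluronan receptor Cd44 (-3.00 ± 0.22) and fibronectin Fn1 (-2.36 ± 0.27) fell. Acan rose in the same cultures in which its protease Adamts4 fell and its protease Adamts1 rose. Of 12 AP-1 and ETS transcription factors, which are known to act on Mmp promoters, 5 rose and 2 fell, with Fos at 1.52 ± 0.18 and Fosl1 at -1.91 ± 0.24 (a lower bound). All these differences passed in limma with adjusted p over all 21780 probe sets. The median difference of these 4 lists, in the order given, was 0.00, 0.12, 0.04 and 0.11.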

How the data were processed

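The authors deposited log2 values, 1 per probe set and array. Per the submitters' processing notes these were made by RMA with the Affymetrix Expression Console software (version not given in the sources used here). RMA forces a common distribution on the arrays and thereby hides any shift that most genes share. Arrays hold no read depth, and their number limits the precision. Of 28270 probe sets in the table, the platform annotation (2016) gave exactly 1 symbol to 21780, several to 1617, and did not list 4873. RefSeq's gene table (GRCm38.p6) held 21689 of their gene identifiers.

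Tests used limma 3.58.1 in R 4.3.3 (lmFit, eBayes, two-sided). P-values were adjusted by Benjamini-Hochberg over the 21780 probe sets and called under 0.05. Comparisons with NSC used all 12 arrays, where tumour stands for the average of the 3 origin means; comparisons between origins used the 9 tumour arrays. The fits were run on simulated data with planted shifts and independent noise. This checks the code only, as it holds no dependence between cultures or probe sets. The members and lists were chosen with earlier results of these data known. Full values are given for members called between origins, or called against NSC with a difference of at least 1 log2 unit; others are given by range and count, except the spread among tumour cultures and a few members named after their values were seen. In the lists around the members genes are named mostly by size, at most 4 per list except for the substrates. Not every gene with a difference of at least 1 log2 unit is named, and Adamtsl3 lay below that size. Reck was named after its values were seen. NSC cultures carry no replicate number and are named by line. The labels do not say that replicate numbers pair cultures. Deviations of same-numbered cultures from their group means correlated by 0.13 to 0.25 between mGC2_NES and mGC3_CNP (3 of 3 over 0.1, against -0.19 to -0.02 for other numbers). The data thus pointed to a pairing there, but the main tests between origins were fitted without it. With replicate number as a block over the 9 tumour arrays, no member call between mGC2_NES and mGC3_CNP changed. For mGC1_GFAP with mGC2_NES (0.00 to 0.11) and with mGC3_CNP (0.03 to 0.25) 1 of 3 was over 0.1 in each. No pairing was read from these, though the block covered the mGC1_GFAP cultures too. Alternatives were other variance priors, scalings, filters, blocks and leaving out each culture.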

Additional observations from a re-analysis of the deposited data

Results flagged for a closer look

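For 4 of 60 member probe sets, 1 tumour culture stood apart from the other 8 by Dixon's ratio, a test that chance passes in about 1 of 20 groups; the 9 cultures hold 3 origins. Mmp14 read 10.32 in mGC2_NES replicate 1, and the next tumour culture read 7.92. Mmp2 read 7.74 in mGC2_NES replicate 3, and the next read 7.42; that culture also had the highest mean over the 8 pericyte and fibroblast markers of the tumour cultures (6.97), with Acta2 at 8.59. Adamts6 read 7.64 in mGC1_GFAP replicate 1, and the next read 8.42. Adamts12 read 7.44 in mGC3_CNP replicate 1, and the next read 7.01, which is within the range of absent transcripts.

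Timp2 differed between origins, with mGC1_GFAP minus mGC2_NES at -0.41 (limma adjusted p = 0.0140, 3 of 3 mGC1_GFAP cultures below all 3 mGC2_NES cultures). Its difference from NSC was 0.43 in mGC1_GFAP and 0.84 in mGC2_NES, and these share the NSC arrays.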

How the results depend on the processing

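No called member result changed direction under any alternative run. Of the 22 member calls of tumour against NSC cultures 19 passed under every alternative in which they were tested; the filter on the level of absent transcripts left Mmp19, Adamts12, Adamts16 and Adamts19 untested. Mmp2, Adamts12 and Timp4 did not without 1 or 2 of the NSC cultures. Leaving out each culture in turn gave 20 to 25 member calls there (6777 to 8114 of all probe sets). It gave 19 to 34 for mGC1_GFAP against NSC (5328 to 6577), where 19 came without the C/tv-a or the G/tv-a NSC culture and 34 without mGC3_CNP replicate 3, and 18 to 21 for mGC2_NES (6543 to 7820) and 19 to 23 for mGC3_CNP (5575 to 6642). Mmp14 in mGC2_NES against NSC did not pass without the C/tv-a or G/tv-a NSC culture or without mGC2_NES replicate 2 or 3 (adjusted p = 0.0584, 0.0715, 0.0884 and 0.0829).

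Between origins, leaving out a culture gave 1 to 3 member calls for mGC1_GFAP against mGC2_NES (534 to 1619 of all, 1336 with all cultures; 534 without mGC1_GFAP replicate 1), with Adamts10 and Mmp17 added to Timp2 without mGC3_CNP replicate 1. It gave 0 to 0 for mGC1_GFAP against mGC3_CNP (24 to 106 of all) and for mGC2_NES against mGC3_CNP (42 to 133), with both lowest counts without mGC3_CNP replicate 3. The F test gave 0 to 2 (222 to 945, against 882). Timp2 in mGC1_GFAP against mGC2_NES passed in all 18 alternatives, with adjusted p from 0.0108 to 0.0470; in the F test it did not pass with the replicate block (adjusted p = 0.0592, 0 member calls), with all 12 arrays in the fit (0.0934, 0 member calls) or without 7 of the 9 cultures. The replicate block gave 74 calls over all probe sets for mGC1_GFAP against mGC3_CNP, 1436 for mGC1_GFAP against mGC2_NES and 121 for mGC2_NES against mGC3_CNP, and changed no other member call. Over all probe sets of the table, mGC1_GFAP against mGC3_CNP gave 165 calls and mGC2_NES against mGC3_CNP 164, against 106 and 100; with all 12 arrays in the fit the first gave 65. Centring arrays on their median gave 874 higher and 526 lower for mGC1_GFAP against mGC2_NES (679 and 657 otherwise), and 48 and 51 for mGC2_NES against mGC3_CNP (58 and 42 otherwise). The cause of these changes was not tested. Probe sets near the level of absent transcripts limit what small levels can show.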
